A study of Homo sapiens with 2 samples.

Results

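The nuclear-encoded genes of the respiratory chain and ATP synthase were compared between A375 cells transfected with si-THOC2 and with NC. They were taken by name from the deposited annotation of the array: names that start with NDUF and a letter and number of a subunit, SDHA to SDHD, names that start with UQCR or ATP5, and COX names of nuclear subunits 4 to 8. Names with a hyphen and pseudogene names were dropped (NDUFA6-AS1, NDUFB2-AS1, NDUFV2-AS1 and UQCRBP1). This left 82 genes with 111 probes, out of 34757 gene names with 58199 probes. Complex I had 38 of these genes, complex II 4, complex III 8, complex IV 14 and ATP synthase 18. A375 is a cell line from a human malignant melanoma, and both cultures were harvested 48 h after transfection. NC is a control siRNA without an intended human target, and si-THOC2 is directed at THOC2, a subunit of the THO complex that couples transcription to mRNA export. The methods list several THOC2 siRNAs and do not say which one was used for the arrays, and the labels name no other treatment of either culture. Total RNA of each culture was hybridized to 1 array, and both arrays lay on 1 slide and were read in 1 scan. With 1 array per condition, no test between the conditions was possible, and each value below describes these 2 arrays. In RNA from whole cultures, fewer cells that carry a transcript and less of it in each cell cannot be told apart.

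The respiratory chain sits in the inner mitochondrial membrane. Complex I takes electrons from NADH, complex II takes them from succinate, complex III passes them from ubiquinol to cytochrome c, and complex IV reduces oxygen. Complexes I, III and IV pump protons, and ATP synthase uses the gradient to make ATP. Most subunits are encoded in the nucleus and imported, while a small core is encoded by mitochondrial DNA, so each complex with such a core needs both genomes. In many melanomas the melanocyte factor MITF and the coactivator PPARGC1A drive respiratory genes, whereas other melanomas lean on glycolysis.

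The knockdown and the cells were checked first. For both samples, the source field names the opposite condition to the title and description, which were followed here. The THOC2 probes measured 136 and 67.3 on the NC array against 40.9 and 35.1 on the other. Their mean log2 fold change was -1.03, both with the scaling used here and after quantile normalization. It was -0.51 after normexp background correction. That method adds an offset of 50, more than either probe measured on the si-THOC2 array. Both probes were therefore lower on the array described as THOC2 siRNA. Of 8 melanocyte markers, 4 were well above background with NC and 5 with si-THOC2. SOX10, MITF, S100B and DCT were measured on both arrays, MLANA only with si-THOC2, and PMEL, TYR and TYRP1 on neither. The single probe of PPARGC1A was not well above background on both arrays. Of 4 markers of neural crest and dedifferentiated melanoma cells, AXL, VIM and NGFR were detected with both siRNAs and SOX9 with neither. AXL measured 23189 with NC and 16034 with si-THOC2, VIM 54790 and 46363, and NGFR 568 and 571. The keratinocyte markers KRT1 and KRT5 were not well above background. Among the others, KRT10 measured 32306 with NC against 20623 with si-THOC2, and KRT14 83.9 against 104. The leukocyte and endothelial markers stayed under 40. Still, 2 of 3 leukocyte markers were well above background with both siRNAs, and 3 of 3 endothelial markers with NC and 1 with si-THOC2. DCT (18.0 and 24.4) and MLANA (18.7 with si-THOC2) were as dim as these. The part of these markers in the results was not tested.

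Each value is the log2 of the background-subtracted signal of a probe, less the 75th percentile of its array, which was 6.62 with NC and 6.31 with si-THOC2 on the log2 scale. A log2 fold change is the si-THOC2 value minus the NC value, and a gene is the mean of its probes that were well above background on both arrays. Of the 111 probes, 103 were measured on both arrays, 2 on the NC array only and 6 on neither, which left 79 of the 82 genes with a value. Before scaling, 102 of the 103 probes were dimmer on the si-THOC2 array, with a median log2 difference of -0.26. Of all probes measured on both arrays, 85.6% were dimmer. The median difference was that of the array as a whole, since the median over all probes measured on both arrays was -0.27.

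After scaling, the respiratory chain genes were nearly level between the conditions. Of 105 probes that could be compared, 0 were lower and 0 were higher by 2-fold or more. Over all 25345 compared probes of the array, 3.33% were lower and 2.93% higher by this limit. At a smaller limit of 1.2-fold, 1 of the 79 genes was lower (1.27%), against 13.0% of 15647 genes measured on both arrays. By the same limit 2 genes were higher (2.53%), against 17.5% of all genes. The lower gene was NDUFC1, and UQCRC2 was among the higher. UQCRC2 lost this call after quantile normalization (0.21), in the authors' values, which nearly repeat it (0.21), after lowess centring (0.20) and after normexp (0.13). NDUFC1 kept its call under each of these. The 79 genes had a median log2 fold change of 0.04, the same as that of all genes, 0.04. The genes also lay close together, with an SD between genes of 0.13, against 0.31 over all genes. This was not particular to them. The related lists described below had SDs from 0.10 (mitochondrial DNA) to 0.23 (TCA cycle), with 0.14 over 77 mitochondrial ribosomal proteins. Bright genes as a whole also spread less. Among 3943 genes at or above the 10th percentile of the members' signal, the SD was 0.21 and the median 0.07. The 71 members above that level had an SD of 0.12 and a median of 0.05. By the 1.2-fold limit 171 of the 3943 brighter genes were lower and 517 higher, against 1 and 2 of the 71 members. Within 1.1-fold of no difference lay 58 members (73.4%), against 42.8% of all genes and 53.4% of the brighter ones.

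**Figure D1:**
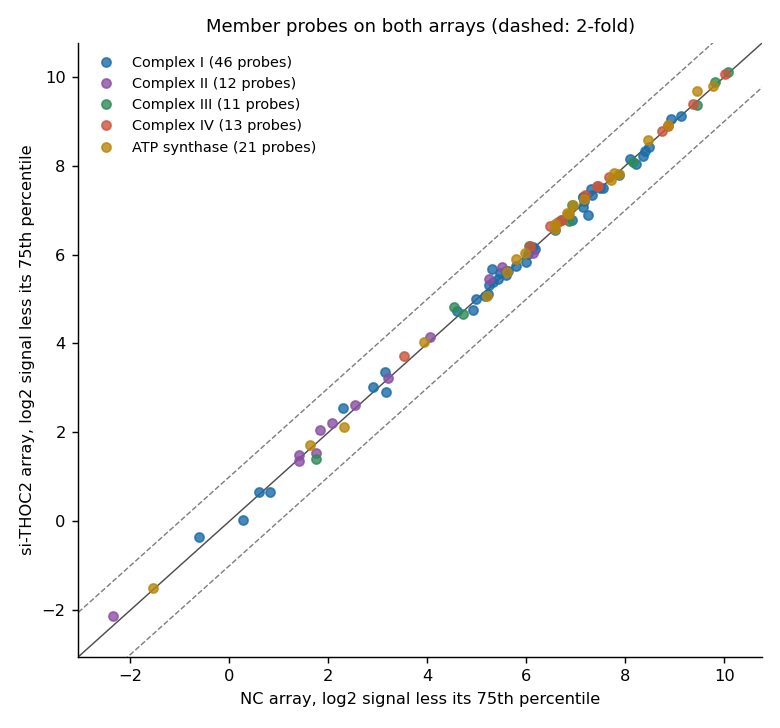
Each point is a probe of a respiratory chain gene that was well above background on both arrays, coloured by complex. The axes give its log2 signal less the 75th percentile of the array, with NC on the horizontal and si-THOC2 on the vertical axis, and the solid line marks equality. All 103 probes lie inside the dashed lines at 2-fold.

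The error within an array was taken from probes printed on several spots. For 244 such probes with a log2 signal over 8, the log2 fold change between spots had a median SD of 0.05, and 95 of the 103 member probes were this bright. It was 0.10 for 36 probes with a log2 signal between 6 and 8 and 0.42 for 14 probes under 4. Some respiratory chain genes had repeated spots themselves, 5 in all. The SD over 10 spots of UQCRC2 was 0.06 around a log2 fold change of 0.27, a distance from 0 larger than the error between spots, which does not cover the scaling. NDUFS5 (8 spots, SD 0.02 around 0.06), NDUFS6 (8 spots, SD 0.03 around -0.07), COX7C (9 spots, SD 0.03 around 0.04) and ATP5SL (8 spots, SD 0.04 around 0.01) lay near 0. Different probes of a gene disagreed by more. Over 18 genes with more than 1 measured probe, the range between probes had a median of 0.12. It reached 0.45 for SDHC, whose highest probe was near background (19.2 and 18.0). The spread between cultures was not measured and adds to both.

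Complex I, the NADH dehydrogenase, had as many genes below 0 as above (19 and 19), with a median of -0.01. This even split depends on the scaling, since 11 were above and 26 below 0 after quantile normalization, 11 and 27 after lowess centring, and 8 and 30 after normexp. Over all genes 56.8% were above 0 with the scaling used here, 50.8% after quantile normalization, 49.6% after lowess centring and 49.2% after normexp, and the counts given for the other complexes are read against these shares. NDUFC1, a small accessory subunit of the membrane arm, had the lowest value of all members. Its probe (hg19 chromosome 4, 140211198 to 140213694, minus strand) measured 14918 with NC against 9405 with si-THOC2, which is -0.36 on the log2 scale after scaling. This was the only gene lower by 1.2-fold with the scaling used here, and its probe was printed on 1 spot. NDUFA5, an accessory subunit of the arm that reaches into the matrix, measured 877 and 591, and its log2 fold change of -0.26 was just inside the limit of 0.26. It was past the limit after quantile normalization (-0.31), lowess centring (-0.31) and normexp (-0.33). NDUFA4 followed, with signals of 29200 and 20772 and a log2 fold change of -0.18, or -0.29 after lowess centring, past the limit. It was first described in complex I, is now counted with complex IV, and carries the current symbol COXFA4.

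NDUFA4L2, a paralogue of NDUFA4 that low oxygen induces in many cells, was at 0.25, just inside the limit at the other end, from signals of only 64.2 and 61.6. It is counted in complex I by its name and is not a subunit of it. NDUFA9, an accessory subunit at the joint of both arms, had signals of 871 and 816 and a log2 fold change of 0.22. The catalytic and the supporting subunits were then described apart, a split made after the values were seen. Of the 7 nuclear-encoded core subunits, which carry the flavin, the iron-sulfur clusters and the ubiquinone site, 5 were above 0, with a median of 0.08. After quantile normalization 4 were above 0 with a median of 0.02, and after normexp 2 with a median of -0.02. NDUFV1, which binds NADH, was at 0.15, NDUFS8 at 0.14, and NDUFS7, which holds the last iron-sulfur cluster, at -0.17. Of the 31 other complex I genes, 17 were below 0, with a median of -0.05. These became 23 and -0.12 after quantile normalization, 24 and -0.11 after lowess centring, and 25 and -0.12 after normexp. Both groups overlap widely. By position in the enzyme, the median was -0.02 for the 10 genes of the NADH-oxidizing module. It was -0.04 for the 5 of the ubiquinone module, 0.00 for the 10 of the proximal membrane arm and 0.01 for the 11 of the distal membrane arm.

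NDUFA10 had 3 probes. Those measured on both arrays gave log2 fold changes of 0.06 and 0.07. The third measured 27.7 on the NC array and was too dim on the si-THOC2 array, where its value is a bound of at least 1.41-fold lower. It was left out of the value of the gene.

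Complex II, succinate dehydrogenase, is encoded by the nucleus alone and also serves the TCA cycle. Its 4 genes had a median of 0.09. SDHB, the iron-sulfur subunit, had signals of 3743 and 3472 and a log2 fold change of 0.20 by its only probe. SDHA, the flavin subunit where succinate is oxidized, was at 0.17, and its 4 probes ran from 0.09 to 0.23. The membrane anchors lay lower. SDHD was at 0.02 over 3 probes. SDHC was at -0.01, but its 4 probes ran from -0.23 to 0.21, so its sign depended on the probe. The probe at 0.21 was near background (19.2 and 18.0), and the brightest one (6897 and 5157) was at -0.11.

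Complex III had 8 genes with a median of 0.05. Its highest values were those of the large matrix-facing core proteins. UQCRC2 had signals of 2291 and 2233, a log2 fold change of 0.27, past 1.2-fold with the scaling used here but not under the 4 others named above (hg19 chromosome 16, 21994578 to 21994637, plus strand). UQCRC1, its partner, had signals of 11962 and 10954 and a log2 fold change of 0.18. UQCRB, a small subunit near the ubiquinone site, was at 0.13, and UQCRFS1, the Rieske iron-sulfur protein, at 0.07. At the low end were the smallest subunits. UQCR10 was at -0.17, with 3 probes from -0.35 to -0.04, UQCR11 at -0.06 and UQCRH, a hinge between cytochromes, at 0.01.

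Complex IV, cytochrome c oxidase, had 14 genes, of which 11 were measured. All 11 were above 0, from 0.03 to 0.21 with a median of 0.08, against 56.8% of all genes and 67.7% of the brighter ones above 0. This holds for the genes that the name rule puts in complex IV and for the scaling used here. NDUFA4 (-0.18), now counted with this complex, and COX4I1 (-0.26), which the rule misses, were below 0. After quantile normalization 6 of the 11 were above 0, after lowess centring 5 and after normexp 3. COX5A and COX5B, which surround the catalytic core, had log2 fold changes of 0.12 and 0.10. COX6A1, COX7A2, COX7C and COX8A lay together at 0.03 to 0.04, and COX6C was at 0.16.

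Several subunits of complex IV come in a common form and a form limited to some tissues. COX6A2 and COX7A1, the forms of heart and skeletal muscle, were not well above background on either array, and neither was COX8C. The common partners of these genes were measured. COX6A1 measured 101600 with NC against 84225 with si-THOC2, COX7A2 had 45503 and 37648, and COX8A had 25987 and 21478. COX7B2, a paralogue of COX7B known from testis, was measured in this melanoma line, with signals of 1124 and 1048 and a log2 fold change of 0.21. COX7B itself was at 0.08. COX6B2, another paralogue known from testis, needs care. One of its probes gave signals of 8715 and 7898 and a log2 fold change of 0.17, while the other gave 18.1 with NC and was too dim on the si-THOC2 array. The bright probe shared runs of 20 bases with 3 probes of other genes, whereas the other 110 member probes shared none. Its signal can therefore not be assigned to COX6B2 alone. Leaving the gene out, an alternative chosen after seeing the data, gave a median of 0.08 for complex IV.

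ATP synthase had 18 genes by the name rule, 14 of them above 0, with a median of 0.06. ATP5S and ATP5SL, now DMAC2, are counted here by their names and are not subunits. After quantile normalization and after lowess centring 8 of the 18 were above 0, and after normexp 6. The 5 genes of the F1 part, where ATP is made, were all above 0, with a median of 0.11. After quantile normalization and after lowess centring this held for 4 of them, and after normexp for 3. ATP5B, the catalytic beta subunit, had signals of 9307 and 8202 and a log2 fold change of 0.13. ATP5A1 was at 0.12, ATP5D at 0.11, ATP5C1 at 0.10 and ATP5E at 0.04. The ring of c subunits that turns in the membrane is encoded by 3 genes for the same mature protein. ATP5G1 was the lowest gene of the complex, with signals of 3597 and 2643 and a log2 fold change of -0.13, while ATP5G2 was at 0.04 and ATP5G3 at 0.13. Each of these 3 genes was measured by 1 probe on 1 spot, and ATP5G2 ran from -0.08 to 0.04 over the scalings. Probes of the same gene differed by a median of 0.12, so a difference between the 3 genes is not shown. ATP5S, now DMAC2L, was at -0.06, with probes at -0.21 and 0.09, and ATP5H, a subunit of the peripheral stalk, was also at -0.06.

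ATP5L, a subunit at the dimer interface, was the highest gene of the complex, with signals of 68698 and 64899 and a log2 fold change of 0.23. Its copy ATP5L2 was at 0.19, with signals of 11984 and 10996. Their probes are shown because they share most of their letters, 28 of 30 in this stretch, with the unlike letters in capitals. The signals of ATP5L and of its copy can therefore not be told apart with certainty. The ATP5L probe lies on hg19 chromosome 11 (118279768 to 118279827, plus strand) and the ATP5L2 probe on chromosome 22 (43035936 to 43035995, minus strand).

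ATP5L probe, bases 23 to 52: ggcatcattggctaTGatgtttgaagacca

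ATP5L2 probe, bases 4 to 33: ggcatcattggctaGAatgtttgaagacca

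**Figure D2:**
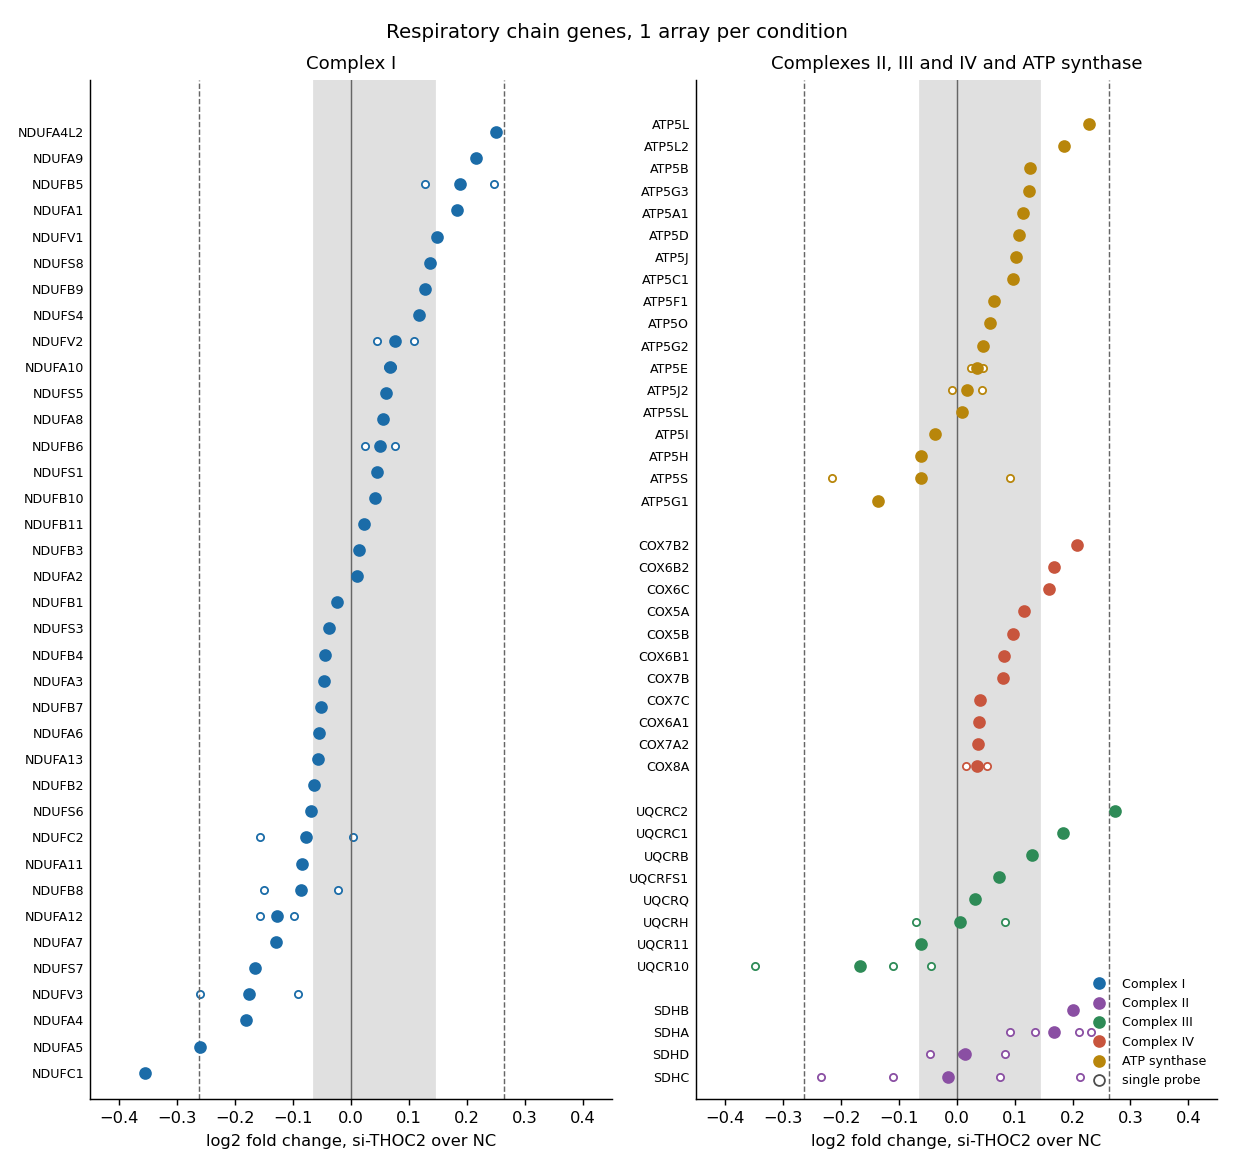
Filled dots give the log2 fold change (si-THOC2 over NC) of 78 of the 79 measured genes, ordered within their complex, and open dots give the single probes of genes with more than 1. The grey band spans 2 SDs between repeated bright spots on either side of the median of all genes, and dashed lines mark 1.2-fold. NDUFC1 at -0.36 and UQCRC2 at 0.27 lie outside the dashed lines.

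Genes that work with the respiratory chain were read in the same way. Of 9 subunits and carriers that the name rule misses, 8 were measured, with a median of 0.02. COX4I1, the largest nuclear-encoded subunit of complex IV, was the lowest at -0.26, with signals of 23484 and 15802. It was past 1.2-fold after quantile normalization (-0.37), lowess centring (-0.36) and normexp (-0.43). USMG5, a small ATP synthase subunit, was the highest at 0.16. The 11 names of mitochondrial DNA had a median of -0.06, and 8 of them were below 0. With the same scaling 6764 of all 15647 genes and 1275 of the 3943 brighter ones were below 0. After quantile normalization and after lowess centring 9 of the 11 were below 0, and after normexp 10. Of all genes, 50.8%, 49.6% and 49.2% were then above 0. ND5 was at -0.17, ATP8 at -0.17, ND1 at 0.09 and ND6, the one on the other strand of that genome, at 0.11. The annotation places the probe named COX1 on chromosome 1, so a nuclear copy cannot be told apart there. None of the 11 passed 1.2-fold with the scaling used here. After normexp 1 was lower by it, against 8.24% of all genes, and their median was -0.18.

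Assembly factors build the complexes and are not part of them. Of 45 on the array, 43 were measured, with a median of 0.05, and 3 were lower and 2 higher by 1.2-fold. The lower ones were COX19 (-0.30) and COX20 (-0.28), which serve complex IV, and ACN9 (-0.30), now SDHAF3, which serves complex II. The higher ones were SDHAF1 at 0.44 and UQCC1 at 0.43. SDHAF1 inserts iron-sulfur clusters into SDHB, and it measured 2829 with NC against 3104 with si-THOC2. UQCC1 helps to make cytochrome b, and it was measured by 3 probes. The shares, 3 and 2 of 43, were below the 13.0% and 17.5% over all genes. Quantile normalization gave 5 lower and 2 higher, against 14.3% and 15.1% of all genes, and lowess centring the same, against 15.0% and 13.9%. With normexp 4 were lower and 1 higher, against 8.24% and 6.43%, so the lower share was not below that of all genes. COX19 (-0.21) and UQCC1 (0.24) then fell inside the limit, and BCS1L (-0.31), which inserts the Rieske protein, and COA1 (-0.33), an assembly factor of complex IV, passed it.

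Among 17 regulators of mitochondrial biogenesis, 16 were measured, with a median of 0.01. GABPA, a factor that binds ETS motifs of respiratory genes, was the lowest at -0.41, from dim signals of 57.5 and 34.8, and it was at -0.12 after normexp. ESRRA, a nuclear receptor that works with PPARGC1A, was at -0.29 over 2 probes, with signals of 4693 and 3087. At the other end were C10orf2, the mitochondrial helicase now named TWNK, at 0.34, POLRMT, the mitochondrial RNA polymerase, at 0.29, and POLG, the mitochondrial DNA polymerase, at 0.27. By 1.2-fold 2 of the 16 were lower and 3 higher, against 13.0% and 17.5% of all genes. Quantile normalization and lowess centring each gave 2 lower and 1 higher, against 14.3% and 15.1%, and 15.0% and 13.9%, of all genes. With normexp 1 was lower and 0 were higher, against 8.24% and 6.43%. C10orf2 (0.21), POLRMT (0.19) and POLG (0.14) were then inside the limit. NRF1 was at -0.02, YY1 at 0.18 and TFAM at 0.08.

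The 13 enzymes of the TCA cycle, which feeds the chain with electrons, had a median of 0.13. Of these, 11 were above 0, against 56.8% of all genes and 67.7% of the brighter ones. The median was 0.06 with 9 above 0 after quantile normalization and 0.02 with 7 after normexp. DLST, a subunit of the 2-oxoglutarate dehydrogenase complex, had signals of 3266 and 3183 and a log2 fold change of 0.27. OGDH was at 0.86, but from signals of 27.0 and 39.7, where the median SD between repeated spots was 0.22 (6 probes), and it was at 0.40 after normexp. SUCLG2 (-0.02) and SUCLA2 (-0.01) were the lowest. All 77 genes with names of mitochondrial ribosomal proteins were measured, with a median of 0.03, among them MRPS36, now KGD4. By 1.2-fold 1 was lower and 4 were higher, below the shares of 13.0% and 17.5% over all genes. After normexp the median was -0.08, with 3 lower and 1 higher, against 8.24% and 6.43% of all genes. MRPS34 had the highest value at 0.55, with signals of 2510 and 2974, followed by MRPL38 at 0.33, while MRPL35 (-0.27) and MRPL36 (-0.23) had the lowest. MRPL38 was dimmer, with signals of 119 and 120. It was past 1.2-fold after quantile normalization (0.29) but not after lowess centring (0.22) or normexp (0.18).

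**Figure D3:**
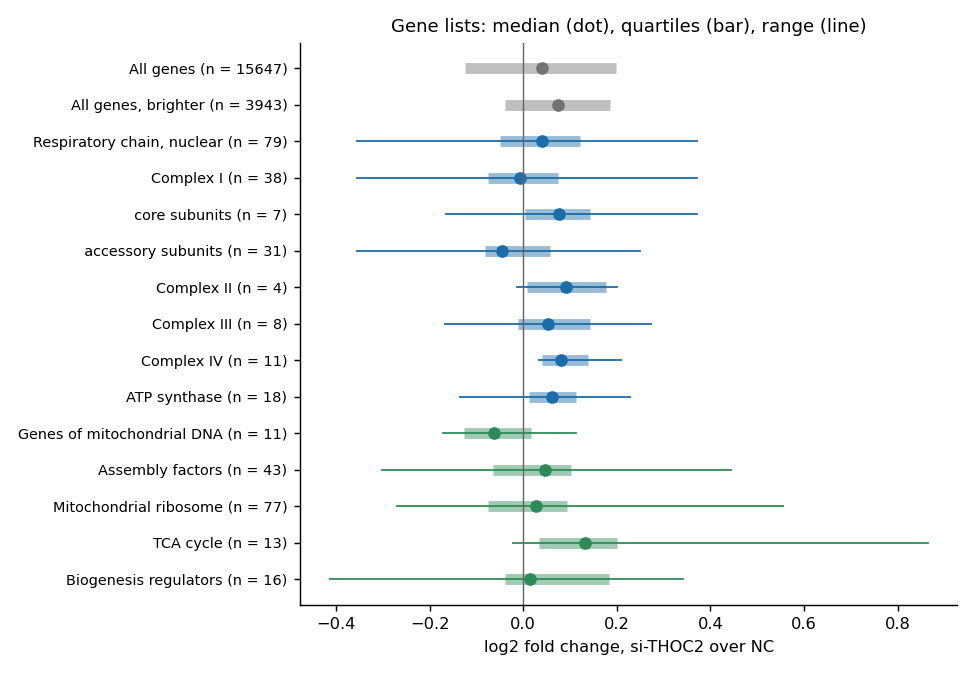
Dots give the median log2 fold change (si-THOC2 over NC) of each gene list, bars the quartiles and thin lines the full range, which is left out for both rows of all genes. The median of the 79 respiratory chain genes lies at 0.04 with that of all genes, that of the TCA cycle at 0.13 and that of mitochondrial DNA at -0.06.

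Promoters of respiratory chain genes are known for sites of NRF1, of ETS factors such as GABPA, and of YY1. The windows of RefSeq (GRCh38.p14), 250 bases before to 50 after each start, were searched on both strands for the letters GCGCANGCG (NRF1), CCGGAAG (ETS) and AAGATGGC (YY1), none of which contains another. Of the 82 genes, 67 had a window. The NRF1 letters were in 22 of them (32.8%), against 12.5% of 15843 protein-coding genes. The ETS letters were in 19 (28.4%), against 16.5%, and the YY1 letters in 12 (17.9%), against 4.66%. At least 1 of the 3 was in 41 genes (61.2%), against 29.0% of all, and 11 genes held more than 1 kind. These shares describe letters in a window and are not sites. Fold changes did not separate by them. The median log2 fold change was 0.02 with the NRF1 letters and 0.04 without, 0.03 and 0.04 for ETS, and 0.06 and 0.04 for YY1.

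The promoters of COX6A1 and UQCR11 are shown because each holds letters of both NRF1 and ETS, while UQCRC2, the highest gene of complex III, holds none of the 3. Each sequence is the 250 bases before the start, read toward the gene, with matching letters in capitals. COX6A1 (log2 fold change 0.04) is at chr12:120437863-120438112 on the plus strand, UQCR11 (-0.06) at chr19:1605463-1605712 on the minus strand, and UQCRC2 (0.27) at chr16:21953111-21953360 on the plus strand.

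COX6A1: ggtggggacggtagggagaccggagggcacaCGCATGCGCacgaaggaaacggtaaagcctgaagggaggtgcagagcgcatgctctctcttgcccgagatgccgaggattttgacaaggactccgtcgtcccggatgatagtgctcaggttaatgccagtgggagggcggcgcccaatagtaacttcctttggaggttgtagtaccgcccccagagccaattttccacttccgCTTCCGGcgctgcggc

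UQCR11: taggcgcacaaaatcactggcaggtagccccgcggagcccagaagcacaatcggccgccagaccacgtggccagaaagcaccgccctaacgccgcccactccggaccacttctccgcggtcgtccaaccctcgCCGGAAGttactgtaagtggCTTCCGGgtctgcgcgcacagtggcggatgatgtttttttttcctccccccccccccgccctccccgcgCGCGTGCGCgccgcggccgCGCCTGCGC

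UQCRC2: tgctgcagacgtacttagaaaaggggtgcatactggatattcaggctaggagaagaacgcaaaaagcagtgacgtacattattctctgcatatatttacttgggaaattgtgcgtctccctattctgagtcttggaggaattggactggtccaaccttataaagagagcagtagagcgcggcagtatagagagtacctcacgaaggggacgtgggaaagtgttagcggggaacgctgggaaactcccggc

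NDUFC1, the lowest member, held none of the 3 motifs. ATP5J lies head to head with GABPA on chromosome 21. ATP5J was at 0.10 and GABPA, as above, at -0.41.

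How far the group lies from all genes depends on the scaling. With the scaling used here, the median of the members was that of all genes to within 0.01. After quantile normalization, the members were at -0.03 and all genes at 0.01. After lowess centring, which removes a trend with signal, they were at -0.05 and all genes at -0.00. With normexp they were at -0.07 and all genes at -0.00. Complex I had the lowest and complex II the highest median under each of 7 ways of scaling or background correction. Of these, the authors' values nearly repeat quantile normalization, and median scaling nearly repeats the scaling used here. Under these 7, 44 of the 79 genes kept their sign, 25 below 0 and 19 above, and 35 did not. NDUFC1 stayed between -0.49 and -0.31.

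**Figure D4:**
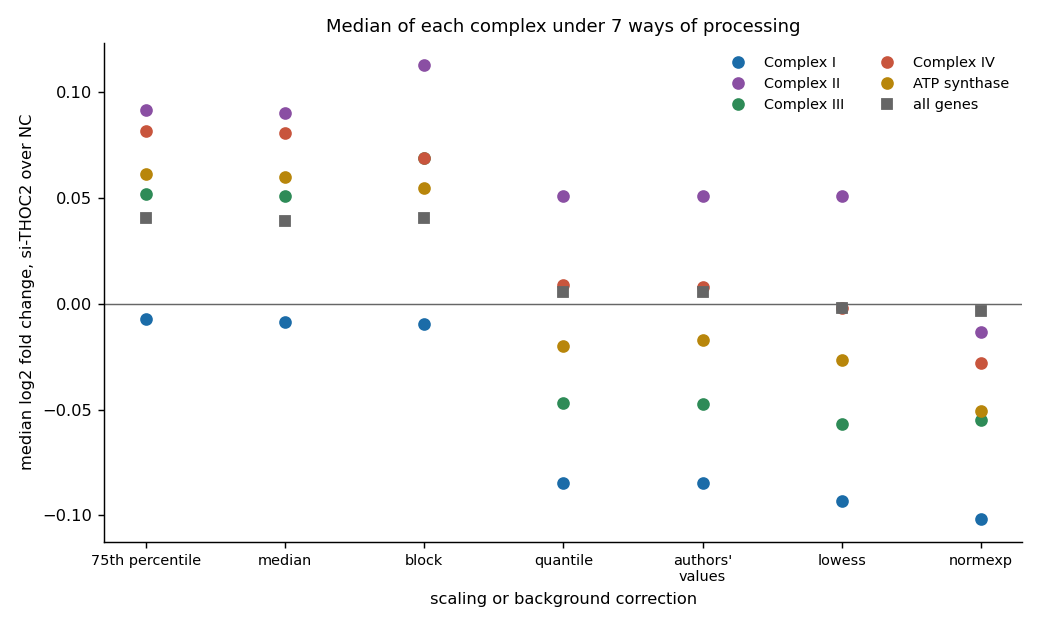
Each dot is the median log2 fold change (si-THOC2 over NC) of the measured genes of a complex, and squares are the median of all genes, under 7 ways of scaling or correcting the arrays. Complex I is lowest in each, from -0.01 to -0.10, complexes III and IV coincide at 0.07 after centring by block, and all 5 medians lie at or below all genes with normexp.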

How the data were processed

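Total RNA of A375 cells was hybridized to 1 Agilent SurePrint G3 array (60-base probes placed on hg19) for si-THOC2 and 1 for NC. Each deposited scanner file holds an intensity per spot. The authors' version of Feature Extraction, 10.7.1.1, removed the local background and spatial trends. A deposited table of log2 values, normalized by the authors with a method not given in the sources used here, served only as an alternative. Its sorted values differed by at most 0.04 between the arrays. Its fold changes nearly equal those of quantile normalization (NDUFC1 -0.42 in both). The authors' comparison table, which holds fold changes, was not used. The t-test that the methods name could not be made without replicates.

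Controls and outlier spots were dropped, and no spot was saturated. Repeated spots entered as the mean of their log2 processed signals. Each array was reduced by its 75th percentile. Of 58199 probes, 24616 were well above background with NC, 22936 with si-THOC2 and 22207 on both. The number of arrays limits the precision. A probe dim on 1 array was given as a bound. Named were THOC2, the 3 lowest and 3 highest genes of each complex, all of complex II, genes without a value, tissue-limited paralogues with their partners, and the 2 lowest and highest genes of each related list. Other genes named were chosen after their values were seen. The members and lists were chosen with earlier results of these data known. A few results that the rule names are not reported here. Older symbols were matched through the RefSeq gene table (GRCh38.p14), and 20 of the 82 genes carry a newer symbol.

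Alternatives were quantile normalization, median scaling, lowess centring (span 0.3), normexp (offset 50), other detection filters, the authors' values, centring by 128 blocks of spots, the brightest probe, and other sets of members. Simulated data were used to test calls at 2-fold, from planted changes larger than that, and medians of unchanged and shifted lists. They held noise between spots only, so they do not cover calls at 1.2-fold or the spread between cultures. Values were computed in Python (3.11.15; pandas 2.3.3), lowess curves with statsmodels (0.14.6), normexp with limma (3.58.1) in R (4.3.3), and figures with matplotlib (3.10.9).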

Additional observations from a re-analysis of the deposited data

How the results depend on the processing

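Of 120 medians and counts computed under the alternatives, 84 stayed within the error between bright repeated spots (0.05) or within 1.5 times the count and 36 moved. With quantile normalization the median of the members was -0.027, against 0.04 as reported. Complex I was then at -0.085, complex III at -0.047, complex IV at 0.0090 and ATP synthase at -0.020. The authors' values gave -0.027 for the members, and by complex -0.085, -0.047, 0.0077 and -0.017 in that order. After lowess centring these were -0.048 for the members and -0.093, -0.057, -0.0021 and -0.026. Normexp gave -0.070, then -0.102, -0.055, -0.028 and -0.051, and moved complex II to -0.013. The cause was not tested. At 1.2-fold, 1 gene was lower and 2 were higher as reported. These counts became 2 and 1 after quantile normalization or from the authors' values, 3 and 1 after lowess centring, and 4 and 1 under normexp. Of all genes, 14.3% were lower and 15.1% higher after quantile normalization, 15.0% and 13.9% after lowess centring, and 8.24% and 6.43% under normexp. Probes detected on at least 1 array gave 2 lower genes, through the dim probe of NDUFA10, against 18.5% of all genes. Dropping the detection filter gave 3 lower and 6 higher, against 14.1% and 48.3% of all genes. The median of all genes was then 0.24 because probes near background enter. As reported, 0 probes passed 2-fold. Quantile normalization, the authors' values and lowess centring each gave 1 lower probe, the dim one of NDUFA10, and no detection filter gave 1 higher probe, that of COX6A2. Of 657 values of 55 named genes, 172 moved, and 0 of those past 1.2-fold changed sign. No paired analysis was possible because each condition has 1 array, and for the same reason no replicate could be left out.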
